A study of Mus musculus with 12 samples.

Results

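The nuclear genes of respiratory complex I were followed in mouse hearts that had been injured as neonates. The members are the 45 gene symbols that begin with Nduf and are not labelled as pseudogenes (-ps), out of 46983 symbols in each deposited table. All 45 had a mean normalized read count of at least 10 in both tables, so every member was tested. They comprise 36 subunits of the mature complex (symbols in Ndufa, Ndufb, Ndufc, Ndufs, Ndufv and Ndufab1), 7 assembly factors (Ndufaf1 to Ndufaf7) and 2 genes that carry the name without being counted here as complex I subunits. Those 2 are Ndufa4, whose protein is now placed in complex IV, and its relative Ndufa4l2.

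All mice carried MCM/+, the usual short name of a MerCreMer allele, a Cre recombinase that acts after tamoxifen and is commonly driven by a cardiomyocyte promoter. Control hearts were MCM/+ and the others were MCM/+ Wls fl/fl, in which Cre can delete Wls, the carrier protein that brings Wnt ligands to the cell surface. All mice, labelled strain BL6/C57, received 3 doses of tamoxifen from postnatal day 1 to day 3 and had myocardial infarction surgery at postnatal day 2. Hearts were taken 2 weeks after surgery and divided into a cardiomyocyte fraction (CM) and a non-cardiomyocyte fraction (NonCM), with 3 libraries in each of 4 groups. The labels call both kinds of cells adult. Every group was injured and received tamoxifen, and a floxed Wls group without MCM was not analysed here.

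Complex I takes electrons from NADH, passes them to ubiquinone and pumps protons across the inner mitochondrial membrane. Its peripheral arm holds the N module, which oxidizes NADH, and the Q module, which reduces ubiquinone, and its membrane arm holds the proton pumps. Core subunits do the chemistry, accessory subunits surround them, and assembly factors help to build the complex but are not part of the finished enzyme. Heart muscle cells are rich in mitochondria and carry high levels of these transcripts.

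The libraries held 1160146 to 10281214 recovered reads, and the shallowest was replicate 1 of the NonCM control group, in which 1 read equals a normalized value of 5.54. Wls was lower in Wls fl/fl CM (80.9 ± 20.5 against 218 ± 22.1 normalized reads, SD, n = 3) by 1.45 on the log2 scale (limma adjusted p = 0.00389, and 0.0896 once the replicate 3 libraries of both genotypes were dropped). In NonCM it was 332 ± 21.4 against 403 ± 26.9 (SD, n = 3), with an adjusted p of 0.0831. Replicate 3 of each group lay close to a mixture of replicates 1 and 2 of its group. Its residual was 1.01 to 1.04 times the counting variance, where the other libraries had 1.13 to 1.91 times, so the replicate 3 libraries may not be independent samples. The main results are therefore also given without them. The 18 cardiomyocyte markers took 11.6 to 12.8% of reads in CM and 6.72 to 8.49% in NonCM, and all 18 were detected in NonCM, the lowest being Tcap at 1599 normalized reads in Wls fl/fl. The 10 fibroblast markers took 0.133 to 0.166% of reads in CM and 1.24 to 1.82% in NonCM. The NonCM libraries therefore held much cardiomyocyte RNA.

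In control CM the levels of the members, expressed per kb of annotated exon, covered a range of 42.2 to 5428 normalized reads per kb. Ndufa4 stood highest at 5428 ± 249 (SD, n = 3). The highest complex I subunits were Ndufb9 (3955 ± 78.9), an accessory subunit of the distal membrane arm, Ndufa1 (3338 ± 25.1), a small membrane protein of the proximal arm, and Ndufa3 (3092 ± 33.4). The median over the 36 subunits was 1385 normalized reads per kb, and the median over the 7 assembly factors was 74.5. The ranges of the 3 libraries did not overlap between Ndufa4, Ndufb9, Ndufa1 and Ndufa3, whereas 25 of the 44 pairs of neighbours in the whole order did overlap.

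The assembly factors formed the low end of this order. Ndufaf1, which acts on the early membrane arm, was the highest of them at 132 ± 8.19 normalized reads per kb (SD, n = 3), and Ndufaf6 the lowest at 42.2 ± 3.07. Only 2 complex I subunits, Ndufb2 (97.5 ± 6.82) and Ndufs5 (59.6 ± 8.45), lay among them. The value of Ndufs5 is uncertain, because 21.7% of the 50-base stretches of its transcripts also occur in the annotated gene BC002163, and reads shared between such copies may have been dropped or split. Stretches of 37.0% of Ndufb4, 35.8% of Ndufs3, 26.2% of Ndufa12 and 23.4% of Ndufb9 are shared with other annotated genes in the same way. The exon length of Ndufb2 and Ndufab1 includes long transcripts (4375 and 4473 bases in all), which lowers their value per kb.

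**Figure D1:**
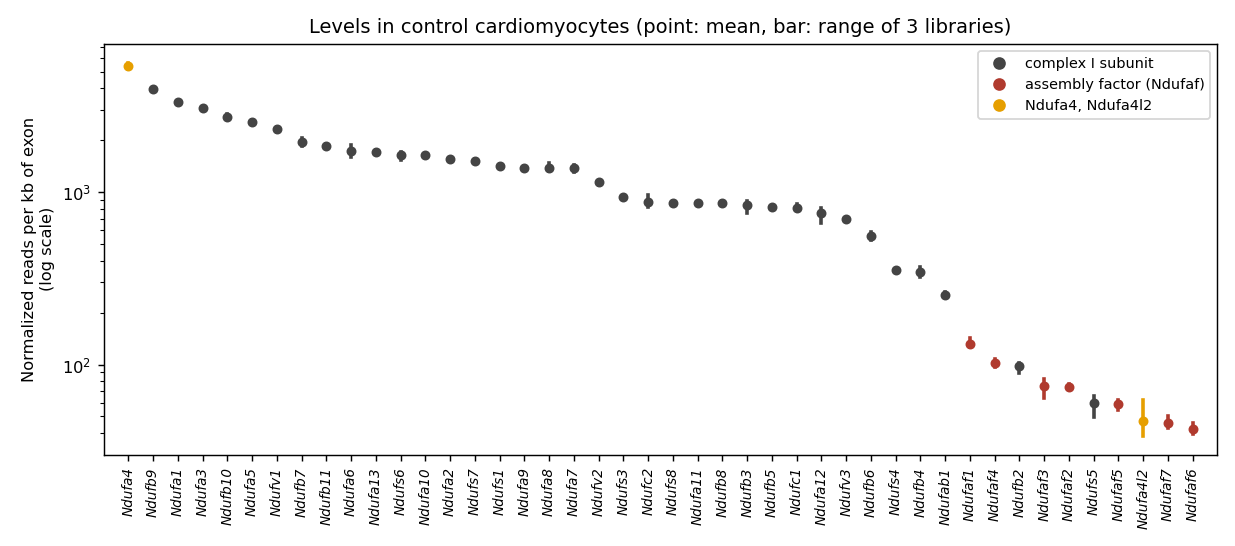
Normalized reads per kb of exon (log scale) for 44 members in control CM, in descending order, with points at the mean and bars from the lowest to the highest of 3 libraries. Ndufa4 leads at 5428, the 7 assembly factors lie between 42.2 and 132, and the subunits Ndufb2 and Ndufs5 lie among them.

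The members were set against each other between the fractions of control hearts in a joint edgeR fit of all 12 libraries. That fit treated fractions of the same heart as independent libraries. Of the 45 members, 44 were called lower in NonCM than in CM at an adjusted p under 0.05. Of the 13395 genes tested, 28.2% were called lower and 28.9% were called higher. The median difference was -0.72 (log2) for subunits, -0.74 for assembly factors and 0.00 for all genes tested. Subunits and assembly factors thus differed between the fractions by a like amount, which is a description over members and not a test. The least lowered subunit was Ndufa7 (-0.42, from the border of the N and Q modules), and the most lowered was Ndufs5 (-1.05). The 7 core subunits lay between -0.73 and -0.89.

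Ndufa4l2, a hypoxia-inducible relative of Ndufa4, was the exception. Its difference was 0.49 (log2, adjusted p = 0.0259), but the adjusted p was 0.501 without the replicate 3 libraries. It had 72.2 ± 12.4 normalized reads in NonCM control and 43.9 ± 12.2 in CM control (SD, n = 3), in tables that were scaled separately. Without replicate 3, 42 of the 45 members were still called. Of all 13395 genes, 5626 were called without replicate 3, 2691 of them lower. With library totals as the only scaling, the median over all genes moved to 0.25, and 44 members again had the lower mean in NonCM, with 43 members called. That scaling called 7860 of 13395 genes, 2042 of them lower.

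The next question was whether deletion of Wls goes with a change of complex I transcripts in the cardiomyocytes themselves. In CM, 43 of 45 members had a higher mean in Wls fl/fl than in control, but none reached an adjusted p below 0.05. Changes above 0 were seen in 50.1% of the 11944 genes tested, and 0.0921% were called in either direction. The median change was 0.10 (log2) for subunits and 0.06 for assembly factors, against 0.00 for all genes tested. At an unadjusted p under 0.05, 16 members were higher by limma (4.91% of all genes were), of which 15 are subunits and the other is Ndufa4. The edgeR test on recovered reads gave 13 members at that level and called none after adjustment, and DESeq2 gave 9 and called none.

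Ndufa11, an accessory subunit of the proximal membrane arm, had the smallest p. Its control libraries had 951, 944 and 938 normalized reads, and its Wls fl/fl libraries 1074, 1160 and 1162. Every Wls fl/fl library lay above every control library, with a difference of 0.26 ± 0.05 (log2, SE) and an adjusted p of 0.140. Ndufa12, an accessory subunit of the N module, had 892, 733 and 896 in control libraries and 1056, 1034 and 1030 with Wls fl/fl. Its groups did not overlap, and its difference was 0.31 ± 0.07 (adjusted p = 0.280).

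Smaller differences of the same sign were spread over the complex. Ndufb8 of the distal membrane arm had 2213, 2109 and 2139 normalized reads in control libraries and 2434, 2398 and 2313 with Wls fl/fl, a difference of 0.15 ± 0.05. Ndufs4, an accessory subunit of the N module whose loss in mice and people gives a Leigh-like disease, had 882, 861 and 888 against 974, 965 and 972. In both genes the groups did not overlap, with adjusted p of 0.423 for Ndufb8 and 0.446 for Ndufs4. Ndufa8 differed by 0.17 ± 0.05, with an adjusted p of 0.434.

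In all, 21 members, 20 of them subunits, had every Wls fl/fl library above every control library, where 7.97% of all genes tested had. None of the 7 assembly factors did. The assembly factors with the smallest p in CM were Ndufaf4 (0.09 ± 0.07, adjusted p = 0.714), Ndufaf6 (0.23 ± 0.17, adjusted p = 0.718) and Ndufaf5 (0.17 ± 0.13, adjusted p = 0.730). The 2 members with a lower mean in Wls fl/fl were the subunit Ndufs5 (-0.21 ± 0.17) and the assembly factor Ndufaf2 (-0.02 ± 0.14). By module, the medians were 0.11 for the N module, 0.06 for the Q module, 0.09 for the N/Q border with the acyl carrier Ndufab1, 0.13 for the proximal and 0.09 for the distal membrane arm.

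The core subunits in CM were all on the higher side. Their differences ran from 0.03 in Ndufv1, which carries the NADH site, to 0.13 in Ndufs8, an iron-sulfur protein of the Q module. Ndufv2, the partner of Ndufv1, differed by 0.10, Ndufs1 by 0.08, Ndufs3 by 0.06 and Ndufs7 by 0.05. Leaving out replicate 3 of both genotypes gave a subunit median of 0.11, with 3 members at an unadjusted p under 0.05 and 2 subunits below 0. With no filter on low values, 1 member was called, where 41 of the 26529 genes then tested were called in either direction.

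In NonCM the subunit means lay on the other side of 0. All 36 had a lower mean in Wls fl/fl than in control, where 46.8% of the 13271 genes tested had, and the median change was -0.20 (log2) against 0.02 for all genes. By limma, 9 members passed an adjusted p of 0.05, all of them lower, and 2.03% of all genes tested did so. The 9 are 8 subunits and Ndufa4. The reads recovered from the deposited values were also tested, which gave 19 members by edgeR (5.16% of genes lower) and 10 by DESeq2 (2.99% of genes lower). Without replicate 3 of both genotypes, no member and no gene was called by limma, while 14 members had an unadjusted p under 0.05. Of these, 13 were lower and had also been at that level with all libraries, and the other, Ndufa4l2, was higher (0.47). edgeR then called no member and had 19 at that level, 18 of them lower and 1 higher. In that edgeR fit 4 of the 13271 genes tested were called lower.

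Ndufa1, encoded on the X chromosome, fell most among the called members. Its control libraries had 1236, 1031 and 1061 normalized reads, and its Wls fl/fl libraries 843, 798 and 806. All Wls fl/fl libraries lay below all control libraries, and the change was -0.44 ± 0.07 (log2, SE; adjusted p = 0.0144). Ndufs7, a core subunit that holds the last iron-sulfur cluster before ubiquinone, had 1064, 1136 and 1152 in control libraries and 894, 915 and 908 with Wls fl/fl. Its groups were also apart, with a change of -0.30 ± 0.05 (adjusted p = 0.0166).

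Ndufv1, the core subunit that binds NADH, fell from 2888, 2945 and 3007 normalized reads to 2565, 2385 and 2406. The change was -0.27 ± 0.05 (adjusted p = 0.0190), with no overlap. Ndufb9 of the distal membrane arm had 2317, 2132 and 2273 in control libraries and 1950, 1686 and 1765 with Wls fl/fl. It fell by 0.32 on the log2 scale (SE 0.06, adjusted p = 0.0270), again with the groups apart.

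The other called subunits were Ndufa2 of the N module (-0.25, adjusted p = 0.0319) and 3 of the proximal membrane arm. These were Ndufa8 (-0.25, adjusted p = 0.0329), Ndufa13 (-0.26, adjusted p = 0.0374), also known as GRIM-19, and Ndufa3 (-0.24, adjusted p = 0.0418). Ndufa4 had 2921, 2655 and 2822 normalized reads in control libraries and 2380, 2210 and 2328 with Wls fl/fl, a change of -0.28 ± 0.05 (adjusted p = 0.0236). None of the 9 calls held in every fit that left out 1 library, and the count of called members moved with the library left out. It was 0 without control replicate 3, and also 0 when either replicate 2 or replicate 3 of Wls fl/fl was dropped. It was 4 when replicate 1 of Wls fl/fl was dropped, 15 without control replicate 2 and 17 without the shallow control replicate 1. Calls over all 13271 genes moved too. In the fits with 0 members, 19, 18 and 9 genes were called lower, in the order given. In the fits with 4, 15 and 17 members, 171, 324 and 749 genes were.

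**Figure D2:**
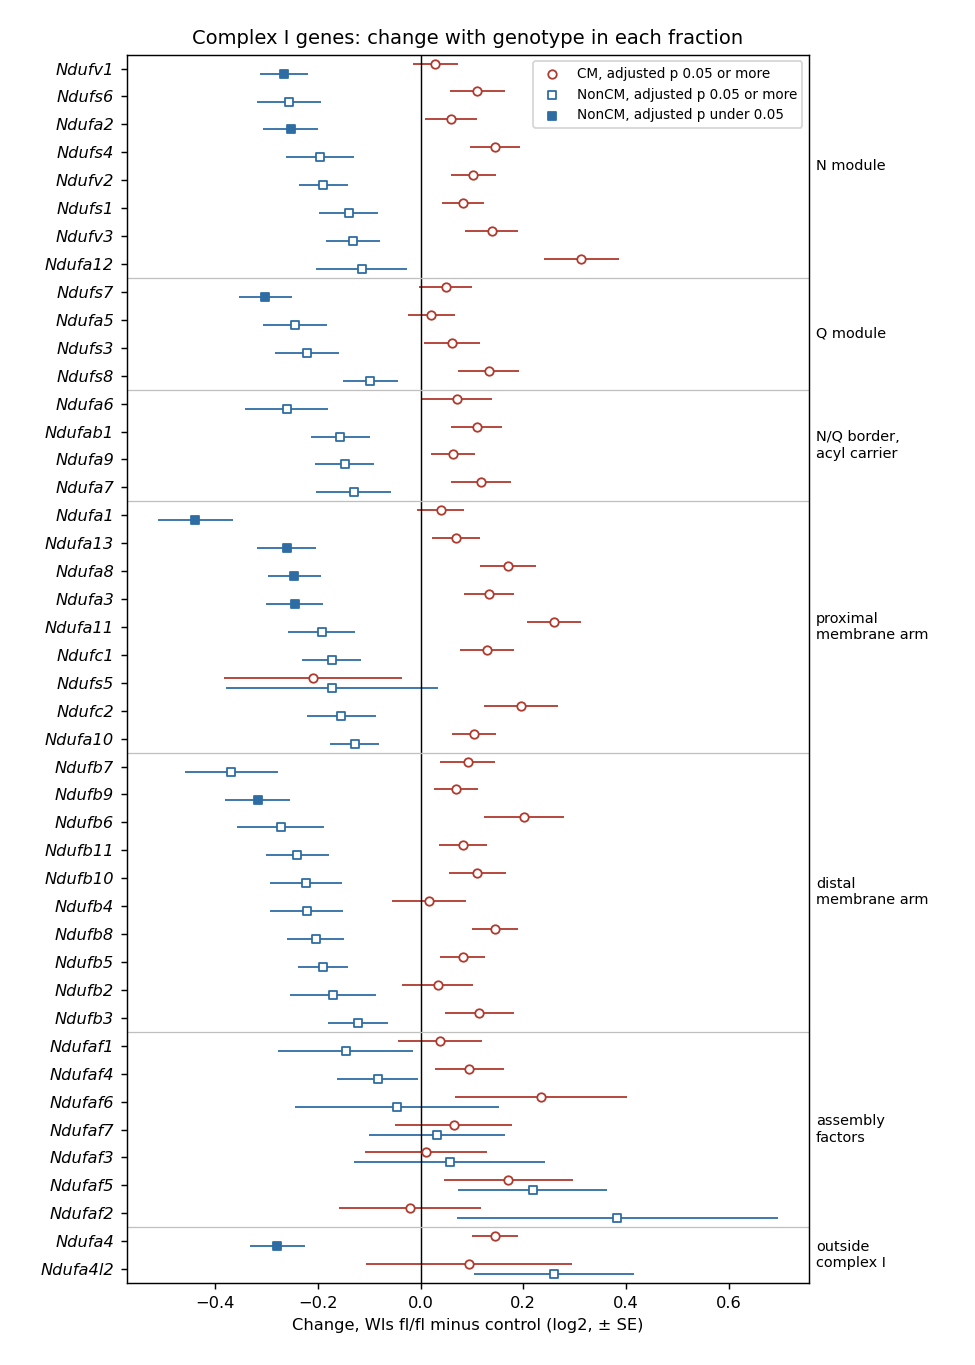
Change with genotype (log2, Wls fl/fl minus control, ± SE, 3 libraries per group) of 44 members in CM (circles) and NonCM (squares), grouped by position in the complex, with filled symbols for an adjusted p under 0.05. The 35 subunits shown lie left of 0 in NonCM and, apart from Ndufs5, right of 0 in CM, and the longest error bar is that of Ndufaf2 in NonCM.

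The lower means in NonCM were found in every module. The medians were -0.19 for the N module (8 genes, 2 called), -0.22 for the Q module (5 genes, 1 called), -0.15 for the N/Q border and acyl carrier (4 genes, 0 called), -0.19 for the proximal membrane arm (9 genes, 4 called) and -0.22 for the distal membrane arm (10 genes, 1 called). The least lowered core subunit was Ndufs8 (-0.10, adjusted p = 0.361), and among the others not called were Ndufs1 (-0.14), Ndufs3 (-0.22) and Ndufv2 (-0.19). Ndufb7 had the second largest difference, -0.37 ± 0.09, and missed the threshold at an adjusted p of 0.0537. At an unadjusted p under 0.05, 31 members were lower, 30 of them subunits, where 8.83% of all genes were. Every Wls fl/fl library lay below every control library in 33 members, 32 of them subunits, where 12.6% of all genes had that order.

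The assembly factors had no common direction in NonCM. Of the 7, 4 had a higher and 3 a lower mean in Wls fl/fl, none was called, none had groups apart in the lower direction, and the median was 0.03. By edgeR and by DESeq2, 3 of these factors (Ndufaf3, Ndufaf6 and Ndufaf7) had the opposite sign. Ndufaf5, a methyltransferase-like factor that modifies Ndufs7, had 61.0, 50.3 and 51.4 normalized reads in control libraries and 66.1, 62.5 and 60.5 with Wls fl/fl, which overlap, with a difference of 0.22 ± 0.14 (adjusted p = 0.456). Ndufaf2 had 22.2, 51.1 and 50.7 against 60.4, 41.9 and 51.6, and its low value in control replicate 1 rests on 4 reads. Its difference was 0.38 ± 0.31 (adjusted p = 0.551). Ndufaf1 had 183, 128 and 150 against 144, 136 and 132, a difference of -0.15 ± 0.13 (adjusted p = 0.593).

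The precision of these low genes limits the contrast. The 7 assembly factors together had 130 reads in the shallowest library and 908 to 1226 in the other NonCM libraries, and their standard errors ran from 0.08 to 0.31, against a median of 0.06 for subunits. The 95% interval of the limma change included 0 for all 7, and it included the subunit median of -0.20 for 6 of them. The exception was Ndufaf5, with an interval of -0.11 to 0.54. Summed over genes, the subunits had 61.4, 57.4 and 57.2 reads per assembly factor read in the NonCM control libraries and 49.0, 50.7 and 54.0 in the Wls fl/fl libraries. All 3 Wls fl/fl libraries were below all 3 control libraries. On the log2 scale the mean subunit level minus the mean assembly factor level was lower by 0.27 in Wls fl/fl NonCM, and without replicate 3 by 0.33. In CM the same ratio was 57.9, 57.2 and 60.2 in control libraries and 58.2, 58.9 and 60.8 with Wls fl/fl, ranges that overlap, although they do not without replicate 3.

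**Figure D3:**
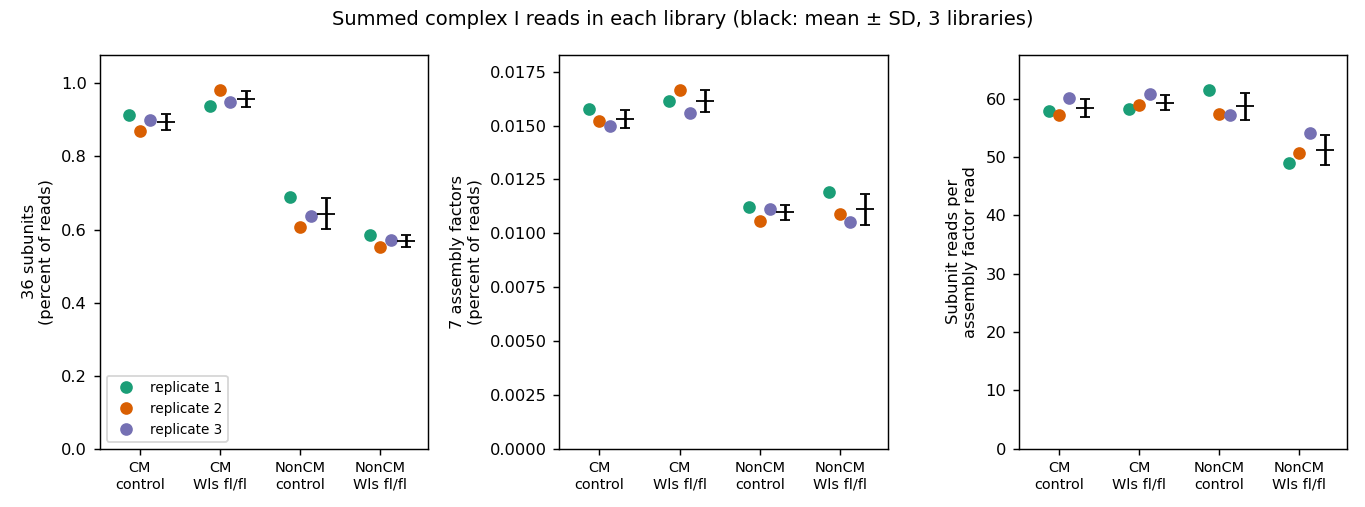
Reads of the 36 subunits and of the 7 assembly factors as percent of all recovered reads, and their ratio, in each of 12 libraries, with black marks at the mean ± SD of 3 libraries. Subunit reads take 0.869 to 0.914% in CM control and 0.938 to 0.981% in CM Wls fl/fl. They take 0.606 to 0.688% in NonCM control and 0.552 to 0.584% in NonCM Wls fl/fl. The assembly factor ranges overlap between genotypes in both fractions.

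The joint edgeR fit has no term for the heart, so fractions of the same heart were treated as independent. Whether the effect of genotype differed between the fractions was tested by the interaction in that fit. It was called for 18 members, in each of which the change was lower in NonCM than in CM, where 1.1% of 13395 genes were called in that direction. These were 17 subunits and Ndufa4, with adjusted p from 0.0307 to 0.0491, and no assembly factor was among them. The median interaction was -0.31 (log2) for subunits, -0.10 for assembly factors and -0.02 for all genes tested. The shift was not particular to complex I. The median was -0.32 for the cardiomyocyte markers, with 11 of 18 called lower. It was -0.29 for complex II (1 of 4 called lower), -0.34 for complex III (7 of 9), -0.32 for complex IV (6 of 13) and -0.31 for complex V (6 of 15). Ndufa1 differed by -0.46, Ndufa11 by -0.45, Ndufb6 by -0.47, Ndufa4 by -0.43 and Ndufb7 by -0.42. No member was called without the replicate 3 libraries (lowest adjusted p 0.717) or with library totals as the only scaling. Of all 13395 genes tested, 0 were called lower without replicate 3 and 2 with library totals. DESeq2 called 29 members lower, but it gave an adjusted p to 2349 genes only, of which 13.5% were called in that direction, and to none of the assembly factors, so this count is not comparable with the 18. The count was also 0 with replicate 3 of any single group left out, or replicate 2 of the NonCM Wls fl/fl group. It was 7 to 11 with replicate 1 or 2 of a CM group, or replicate 1 of NonCM control, left out. Without NonCM control replicate 2 it was 20, and without NonCM Wls fl/fl replicate 1 it was 19. Calls over all 13395 genes moved as well. In the fits without 1 library that called no member, 0 genes were called lower. With 7 to 11 members called, 53 to 104 genes were called lower, with 20 members 176 and with 19 members 221.

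Cardiomyocyte markers moved with the subunits in NonCM. Of the 18 markers, all 18 were lower in Wls fl/fl NonCM, 14 of them called, with a median of -0.28, and none was at 0. Their summed share was 8.49, 7.75 and 7.94% of reads in the control libraries and 6.95, 6.72 and 6.84% in the Wls fl/fl libraries. All 10 fibroblast markers were higher, 6 of them called (median 0.43), and all 10 macrophage markers were higher, 2 of them called (median 0.37). Of 9 endothelial markers, 8 had a lower mean and 1 was called lower (median -0.15), and their summed share was 0.211 to 0.223% of reads in control NonCM and 0.195 to 0.202% with Wls fl/fl, which do not overlap. The part of these cell types in the subunit result was not tested. In bulk libraries, fewer cells of a type and less RNA per cell cannot be told apart.

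As a description only, subunit reads were also set against the cardiomyocyte marker reads. Bulk libraries do not show which cells the subunit reads came from. Mean fibroblast marker shares in NonCM were 1.27% in control and 1.78% with Wls fl/fl, and macrophage marker shares were 0.135% and 0.176%. The part of cell types in this ratio was not tested. The subunit reads of NonCM were 8.11, 7.82 and 8.02% of the marker reads in control libraries and 8.40, 8.22 and 8.34% with Wls fl/fl, so every Wls fl/fl library was above every control library. On the log2 scale the mean subunit level minus the mean marker level was higher by 0.07 in Wls fl/fl NonCM. In CM it was higher by 0.07 as well, with the groups apart in both fractions (0.053 and 0.064 without replicate 3), although the summed reads of 7.65, 7.42 and 7.56% against 8.10, 7.64 and 8.07% overlap. The marker levels of the 2 genotypes do not overlap in NonCM, so a fit with the marker level as a covariate cannot separate it from genotype. That fit called no member and no gene, and gave a subunit median of 0.15. In CM the marker shares overlapped between genotypes, at 11.7 to 11.9% in control and 11.6 to 12.8% in Wls fl/fl.

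**Figure D4:**
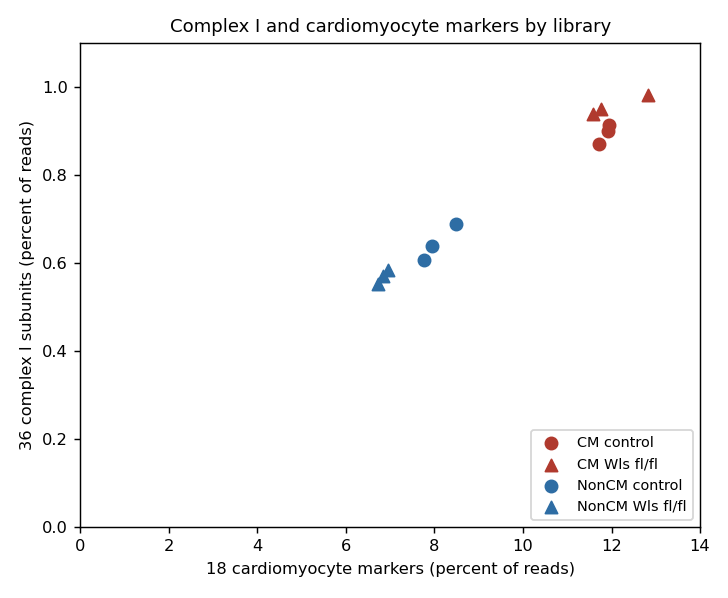
Percent of recovered reads from the 36 complex I subunits against that from the 18 cardiomyocyte markers in 12 libraries, both axes from 0. The NonCM Wls fl/fl libraries lie lowest on both axes, and the CM Wls fl/fl libraries lie at 0.938% or more of subunit reads with marker shares that overlap those of CM control.

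The rest of the oxidative phosphorylation system was read from lists that share no gene with the 36 subunits. In NonCM, limma called 1 of 4 genes of complex II, 3 of 9 of complex III, 6 of 13 of complex IV and 9 of 15 of complex V, all lower, with medians of -0.18, -0.17, -0.21 and -0.24. Every gene of these 4 lists had a lower mean in Wls fl/fl NonCM. Examples are Sdha, the flavoprotein of complex II (-0.22, adjusted p = 0.0345), Uqcrh of complex III (-0.24, adjusted p = 0.0192), the heart and muscle isoform Cox6a2 of complex IV (-0.36, adjusted p = 0.00670) and Atp5c1 of the ATP synthase (-0.24, adjusted p = 0.0219). In CM limma called none of these genes, and the medians were 0.09, 0.15, 0.10 and 0.09. DESeq2 called 1 complex IV gene higher in CM, and so did the fit with the marker covariate.

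The subunits of complex I that the mitochondrial genome encodes did not follow the nuclear ones in CM. Of the 7 genes, 5 had a lower mean in Wls fl/fl CM, and all 7 had a lower mean in Wls fl/fl NonCM, as the nuclear subunits did there. None was called in either fraction. The gene mt-Nd1, which forms part of the ubiquinone channel, differed by -0.07 ± 0.05 in CM (adjusted p = 0.708) and by -0.08 ± 0.09 in NonCM (adjusted p = 0.665). The medians were -0.05 in CM and -0.12 in NonCM. The values of mt-Nd3 and mt-Nd4l, short genes with group means of 14.1 to 34.4 normalized reads, are uncertain.

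Assembly factors with other names were read from a list of 11 tested genes. None was called in either fraction, with medians of 0.09 in CM and -0.14 in NonCM, where 9 of the 11 had a lower mean. Aifm1, needed for import of respiratory chain proteins, came closest in NonCM at -0.27 ± 0.07 (adjusted p = 0.0537). Of 9 regulators of mitochondrial genes, only Perm1, a muscle-specific regulator of oxidative metabolism, was called in NonCM (-0.29, adjusted p = 0.0193), and none was called in CM. In CM, Ppargc1a and Esrra, which drive transcription of respiratory genes, differed by 0.22 ± 0.08 and 0.19 ± 0.08. Their adjusted p were 0.452 and 0.518. Over all 9 regulators the CM median was 0.06, with 8 higher and 1 lower. The lower one was at -0.15, with every Wls fl/fl library below every control library. At an unadjusted p under 0.05 by limma, 2 were higher and 1 was lower. The NonCM median was -0.12.

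**Figure D5:**
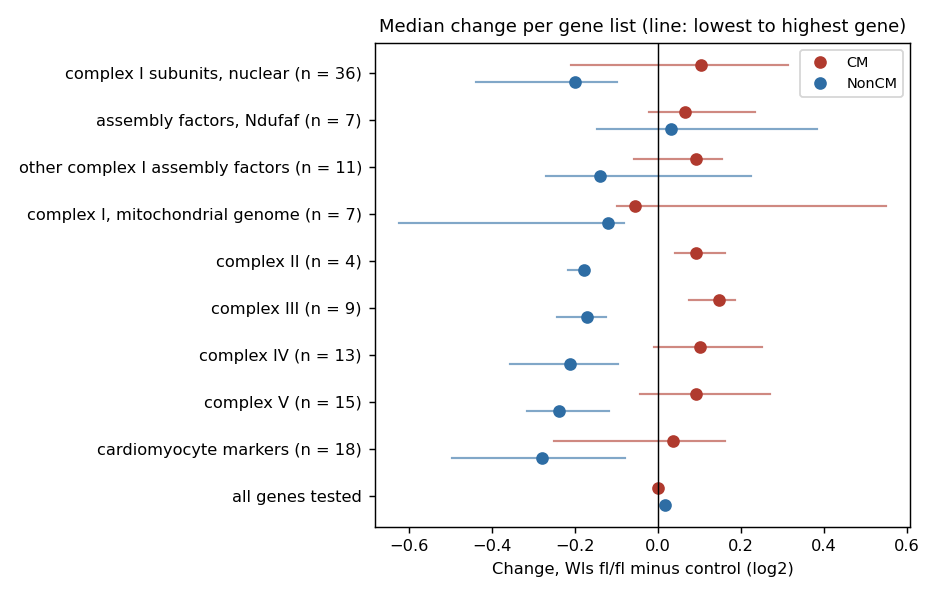
Median change with genotype (log2, points) and the range from the lowest to the highest gene (lines) of complex I lists, complexes II to V, cardiomyocyte markers and, without a range, all genes tested, in CM and NonCM. The nuclear lists of complexes I to V have medians of 0.09 to 0.15 in CM and -0.17 to -0.24 in NonCM, while the Ndufaf median is 0.06 in CM and 0.03 in NonCM.

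After the shared direction of the subunits in NonCM was seen, member promoters were searched for letters known to bind regulators of mitochondrial genes. The cardiomyocyte markers and complexes II to V had that direction too. The part of these letters in any change was not tested. RefSeq promoters on GRCm38.p6, from 250 bases before to 50 bases after the start, were found for 39 members, among them 32 subunits and 6 assembly factors. The 4 motifs searched, each on both strands, were AAGGTCA (the half-site of estrogen-related receptors), GCGCATGCG (NRF1), CCGGAAG (ETS factors such as GABP) and AAGATGGCG (YY1). The NRF1 letters were first searched with 1 more letter (a final C), which was found in 1 of 32 subunit promoters, 2 of 6 assembly factor promoters and 1.07% of all genes, and the 9-letter form was taken up after that result was seen. Matches of different motifs overlapped in no member's promoter. The YY1 letters occurred in 5 of 32 subunit promoters (15.6%), where 1.64% of all genes with a promoter and 3.54% of those tested in NonCM held them, and in none of the 6 assembly factor promoters. These are the 5 stretches, 5′ to 3′ on the strand of the gene, with the motif in capitals.

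Ndufa9 (chr6:126849096-126849125, minus strand): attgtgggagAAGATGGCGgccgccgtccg
Ndufc1 (chr3:51408914-51408943, minus strand): cctgcggaacAAGATGGCGccgtccgtagt
Ndufs4 (chr13:114388045-114388069, minus strand): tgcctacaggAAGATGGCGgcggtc
Ndufs6 (chr13:73328433-73328459, minus strand): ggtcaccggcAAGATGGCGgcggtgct
Ndufs7 (chr10:80249463-80249492, plus strand): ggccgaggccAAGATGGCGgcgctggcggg

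In all 5 the ATG inside the capitals is the annotated start codon, and the match begins 23 to 36 bases after the RefSeq start. The letters therefore lie across the beginning of the coding sequence, and a match does not show that a factor binds there. Ndufs7 was called in NonCM, whereas Ndufa9 (-0.15), Ndufc1 (-0.17), Ndufs4 (-0.20) and Ndufs6 (-0.26) were not. The NRF1 letters occurred in 2 of 32 subunit promoters (6.25%) and in 2 of 6 assembly factor promoters, where 1.95% of all genes and 4.15% of those tested in NonCM held them. These 4 stretches come from Ndufa11, the member of smallest p in CM, from Ndufa8, called in NonCM, and from the 2 assembly factors. In Ndufa8 the capitals are the reverse complement of the motif, and in the other 3 the letters occur on both strands in overlap.

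Ndufa11 (chr17:56717692-56717721, plus strand): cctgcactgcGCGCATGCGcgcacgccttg
Ndufa8 (chr2:36049328-36049357, minus strand): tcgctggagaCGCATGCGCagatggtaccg
Ndufaf4 (chr4:24897960-24897989, plus strand): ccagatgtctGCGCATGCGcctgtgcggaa
Ndufaf5 (chr2:140170652-140170681, plus strand): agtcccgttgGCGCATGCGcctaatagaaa

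The match begins 60 bases before the start in Ndufa11, 9 before it in Ndufa8 and 113 before it in Ndufaf4, and at base 17 after it in Ndufaf5. The half-site AAGGTCA was found in 3 of 32 subunit promoters (9.38%), those of Ndufb2, Ndufb4 and Ndufs5, against 5.38% of all genes and 3.86% of those tested in NonCM. The ETS letters were found in 4 of 32 (12.5%), those of Ndufb6, Ndufb7, Ndufs3 and Ndufs8, against 9.93% and 19.4%. The promoters of Ndufa1 and Ndufv1, which are among the most lowered subunits in NonCM, held none of the 4 motifs, and 14 of 32 subunit promoters held at least 1.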

How the data were processed

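Bulk RNA sequencing gave 12 libraries in 4 groups of 3. The labels number the libraries but do not pair the fractions by heart, so p-values reflect only the variation among these 12. The joint fit treated all 12 as independent, although both fractions came from the same hearts. Per the submitters' processing notes, STAR and DESeq2 were used with build mm10, without versions, while the counting tool, its strand setting and the annotation used were not given in the sources used here. Deposited signal values, 1 table per fraction, are normalized read counts, which the authors made by dividing gene counts by a size factor (100% of values were whole multiples of a step, to 0.01 reads). Per the file headers, the deposited log2 fold changes, standard errors, Wald scores and p-values are the authors' own and were not used for results.

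The main test was limma 3.58.1 (R 4.3.3, lmFit and eBayes with trend) within each fraction on log2(value + 1), for genes whose mean was at least 10, with Benjamini-Hochberg adjustment over all genes tested and a threshold of 0.05. A pseudocount of 1 understates changes of low genes. "Called" means past that threshold, and a change is Wls fl/fl minus control. With 3 against 3, an exact permutation test cannot go below 0.1. edgeR 4.0.16 (quasi-likelihood, TMM) on recovered reads gave the interaction and the fraction contrast, because the tables were scaled apart. Alternatives were other scalings, filters and pseudocounts, edgeR, DESeq2 1.42.0, a cardiomyocyte marker covariate and each library left out, and edgeR without replicate 3 of both genotypes was added after seeing the data. Scripts that test across genes were tested on simulated data. The simulated genotype changes and interactions were larger than those of the members in the main fits, so recovery of changes this small was not tested.

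Gene positions and exon lengths come from GENCODE M21, in which each of the 45 symbols matched 1 gene. Percent of reads is over all recovered reads of a library. Named were every called member, the core subunits, the 6 subunits and 3 Ndufaf genes of smallest p per fraction, the 3 highest and 3 lowest members per kb, Ndufa4 and Ndufa4l2, and members with a called interaction. Other members, examples from the other lists and the promoter motifs were chosen after values were seen. The separate values of 1 member are not reported here, although sums, medians and counts include it. Members and lists were chosen with earlier results of these data known. Whole promoters are not printed, since annotated exons lie in them.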

Additional observations from a re-analysis of the deposited data

Results flagged for a closer look

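The effect of genotype differed between the fractions for 18 members by the interaction term of the joint edgeR fit, each with a lower change in NonCM than in CM. In the proximal membrane arm the differences (log2, NonCM minus CM) were -0.46 for Ndufa1, -0.45 for Ndufa11, -0.42 for Ndufa8, -0.38 for Ndufa3, -0.33 for Ndufa13 and -0.31 for Ndufc1. In the distal membrane arm they were -0.47 for Ndufb6, -0.42 for Ndufb7, -0.39 for Ndufb9, -0.35 for Ndufb8 and -0.28 for Ndufb5. In the N module they were -0.36 for Ndufs6, -0.34 for Ndufs4, -0.31 for Ndufa2, -0.31 for Ndufv1 and -0.30 for Ndufv2. The Q module gave Ndufs7 (-0.38), and Ndufa4, outside complex I, had -0.43. Adjusted p ran from 0.0307 to 0.0491 and none of the 18 calls held without the replicate 3 libraries. Without those libraries, 0 of the 13395 genes tested were called lower. Cardiomyocyte markers fell with the subunits in NonCM, and their interaction had a median of -0.32, with 11 of 18 called lower. Complexes III, IV and V had medians of -0.34, -0.32 and -0.31. The part of the markers in the differences of the 18 members was not tested.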

How the results depend on the processing

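No paired analysis was run, because the labels do not say which libraries share a heart. The library numbers follow the same order of genotypes in both fractions, but the labels do not say that this order pairs the hearts. In CM, 1 member was called with no filter, where 41 of 26529 genes were called. In NonCM the count of called members was 15 with a mean of at least 50, 19 by edgeR, 0 with the marker covariate, 0 without replicate 3 of both genotypes by limma and 0 by edgeR, and 0 to 17 when 1 library was left out. Over all genes, 364 of 9771 were called lower with that filter and 685 of 13271 by edgeR. The number was 0 with the covariate, and without replicate 3 it was 0 by limma and 4 by edgeR. The interaction count was 0 with library totals, 29 by DESeq2 (13.5% of 2349 genes called lower, against 1.1% of 13395), 0 without replicate 3 of all 4 groups, and 0 to 20 when 1 library was left out. With library totals 2 of 13395 genes were called lower, and without replicate 3 of all 4 groups 0 were. With the marker covariate the NonCM medians became 0.15 for subunits and 0.31 for assembly factors, and without replicate 3 the assembly factor median became 0.14. The covariate, whose levels do not overlap between genotypes in NonCM, also turned signs, among them those of Ndufa1 (0.11), Ndufa11 (0.15), Ndufa3 (0.16), Ndufa4 (0.18), Ndufaf1 (0.93), Ndufaf2 (-0.11), Ndufb5 (0.052), Ndufb6 (0.28), Ndufb7 (0.24), Ndufb8 (0.16), Ndufb9 (0.37), Ndufc1 (0.21), Ndufs1 (0.36), Ndufs4 (0.13), Ndufs6 (0.26), Ndufs8 (0.048) and Ndufv2 (0.094). In all it turned 27 of the 36 subunits, 4 of the 7 assembly factors and Ndufa4, of which only some are listed here. By edgeR in NonCM, Ndufaf3 (-0.11), Ndufaf6 (0.041) and Ndufaf7 (-0.016) turned, and by DESeq2 Ndufaf3 (-0.069), Ndufaf6 (0.018) and Ndufaf7 (-0.00039). Ndufaf1 (0.0035) turned by edgeR without replicate 3. In CM, edgeR and DESeq2 each turned 1 assembly factor and no subunit. Among named members, leaving out 1 library gave Ndufaf2 -0.0042 to 0.58, Ndufaf6 -0.18 to 0.073 and Ndufaf7 -0.076 to 0.090 in NonCM, and Ndufa4l2 -0.029 to 0.31 and Ndufaf7 -0.0047 to 0.16 in CM. The cause of these changes was not tested. The 36 subunits kept a lower mean in NonCM in every fit that left out 1 library. In fits of that kind, 9 to 749 of 13271 genes were called lower in NonCM. For the interaction, 0 to 221 of 13395 genes were. Depth limits the assembly factors most, since the shallowest library held 130 of their reads.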
